A study of Mus musculus with 60 samples.

Results

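Mtcl1, Adgrb2, Jcad, Pdzd2 and Fasn are 5 of the 9066 genes in the deposited tables, chosen by their connectivity, which was among the highest in a cosplicing network of mouse striatum. In such a network a gene is linked to the genes whose exon usage differs between the same pairs of animals. The 5 genes held 122 of the 114691 exon rows, where an exon row is a stretch of exon sequence with its own read value in each mouse, numbered here from the 5′ to the 3′ end of the gene. All 122 rows were kept. Of these, 100 averaged at least 10 over the mice, 14 averaged less without being 0 throughout, and 8 were at 0 in every mouse. The connectivity that chose the genes was computed from these same exon rows, so the covariation of the rows is given as a description with no test, while catalepsy phenotype and sex were not used in the choice and were tested.

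The striatum of each of 60 HS-CC mice was dissected by hand, and 1 polyA RNA library per mouse was sequenced. HS-CC mice are an outbred stock made by crossing inbred strains that include wild-derived ones, and per the study the animals came from earlier generations of breeding for the response to haloperidol, a dopamine receptor blocker that causes catalepsy, a state of immobility. The labels hold a mouse number, the sex and the catalepsy phenotype, and there were 13 female and 17 male non-responders and 15 female and 15 male responders. The mice are named here by these numbers. The age of the mice, the drug dose and the interval between testing and dissection are not given in the sources used here. Whole reads recovered from the gene table were from 4913122 to 21872744 per mouse (median 14520042). In 17 mice, 9 non-responders and 8 responders, they were at most 9507322, and in the others at least 12051239. These 17 are called the shallow mice.

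The genes have unlike roles. Mtcl1 (ENSMUSG00000052105; chromosome 17, minus strand, 19 rows) encodes a protein that crosslinks and stabilises microtubules. Adgrb2 (ENSMUSG00000028782; chromosome 4, plus strand, 28 rows) encodes an adhesion G protein-coupled receptor of the brain. Jcad (ENSMUSG00000033960; chromosome 18, plus strand, 4 rows) encodes a protein of endothelial cell junctions that acts on Hippo signalling. Pdzd2 (ENSMUSG00000022197; chromosome 15, minus strand, 29 rows) encodes a large protein with several PDZ domains, modules that hold other proteins together. Fasn (ENSMUSG00000025153; chromosome 11, minus strand, 42 rows) encodes fatty acid synthase, the enzyme that makes palmitate.

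In alternative splicing, the exons of a gene are joined in different combinations, and a change then appears as 1 exon or a few neighbouring exons gaining or losing reads relative to the rest of the gene. Reads can also shift gradually along a transcript. Selection of RNA by its polyA tail retains the 3′ end of a broken molecule, so that a library made this way can hold more reads near the 3′ end. Exon usage is given below as the share of a row in the sum of all exon rows of its gene, in percent. The factor that scales each library cancels in a share.

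Row starts are those of the deposited table (NCBI m37). Of the 122 rows, 118 were matched by the spacing of their starts to exons of GENCODE M21 (GRCm38). By this annotation 97 were coding, 13 part coding and 8 non-coding, and 4 were not matched. The exons in the following lines are shown for 2 reasons. Without the 4 mice farthest from the rest, Fasn row 20 was 1 of 2 rows that met both of the following limits. The SD of the share was at least 2 times that of counting error, and the row stood apart from the pattern shared by the 5 genes. The other exons shown are short coding exons listed at 0 in all 60 mice. Each sequence is the reference sequence (GRCm38), written 5′ to 3′ on the strand of its gene.
Fasn row 20, chr11:120815291-120815470, minus strand: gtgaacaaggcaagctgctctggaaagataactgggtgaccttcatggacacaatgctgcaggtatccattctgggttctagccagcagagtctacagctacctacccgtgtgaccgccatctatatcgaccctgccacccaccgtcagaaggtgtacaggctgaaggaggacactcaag
Adgrb2 row 11, chr4:130009482-130009550, plus strand: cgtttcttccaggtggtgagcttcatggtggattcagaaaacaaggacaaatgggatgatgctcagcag
Adgrb2 row 22, chr4:130016634-130016696, plus strand: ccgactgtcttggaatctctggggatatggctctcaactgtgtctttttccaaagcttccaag
Pdzd2 row 20, chr15:12388544-12388578, minus strand: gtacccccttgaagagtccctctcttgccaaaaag

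The exons at 0 shown above were 69, 63 and 35 bases long, and short exons had low values in general. Of 19 matched exons under 100 bases, 4 were at 0 in every mouse and 13 averaged under 10, and the median of their mean values was 3.02. Of 56 exons of at least 100 but under 200 bases 2 were at 0 in every mouse, and of 43 longer exons 1. Their medians were 81.4 and 193. Per base of exon, the medians were 0.0686, 0.542 and 0.548 in the same order. Reads on short exons were thus fewer also after division by length. The read length is not given in the sources used here, and the part of read alignment in these values was not tested.

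The 5 genes varied between the mice in nearly the same way. For each gene, the cosine distance between the exon values of every pair of mice was taken, and the distances of each pair of genes were compared by their Pearson correlation (a Mantel correlation). Over the 10 gene pairs this was from 0.966 to 0.991, with a median of 0.985 (jackknife SE over mice 0.0181). A few mice supplied most of the distance. The 59 pairs that involve mouse 63, a female responder, are 3.33% of the pairs. They held 34.2% of the summed distance in Mtcl1, 37.5% in Adgrb2, 46% in Jcad, 38.7% in Pdzd2 and 26.6% in Fasn. In the 867 other genes with at least the lowest mean exon sum of the 5, the median was 23.5% (quartiles 18.1 to 28.4). Fasn therefore lay within the quartiles of these genes and the other 4 above them.

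Mice 63, 5, 4 and 62 were the farthest from the rest in each of the 5 genes, and in this order. The mean distance of mouse 63 to the other mice, relative to that of the median mouse, was 16.4 in Mtcl1, 18.5 in Adgrb2, 25.4 in Jcad, 20.2 in Pdzd2 and 12.2 in Fasn. That of mouse 62, the fourth in order, was from 2.24 in Adgrb2 to 3.95 in Pdzd2, and the fifth mouse was at 1.80 to 2.12. Pairs with any of the 4 mice held from 61.4% of the summed distance in Fasn to 86.6% in Jcad. The 4 mice are 1 of each combination of sex and phenotype, mouse 5 a female non-responder, mouse 4 a male responder and mouse 62 a male non-responder.

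Without mouse 63 the Mantel correlations were from 0.957 to 0.989 (median 0.966), and most of the jackknife SE comes from this mouse. Without the 4 mice they were from 0.645 to 0.805 (median 0.705). Leaving out any single mouse other than 63 gave medians from 0.984 to 0.986. The order of the genes by connectivity moved more. Connectivity, the sum over all other genes of the absolute correlation to the power of 6, was 1533 for Mtcl1 (rank 2), 1522 for Adgrb2 (rank 3), 1501 for Jcad (rank 7), 1497 for Pdzd2 (rank 8) and 1495 for Fasn (rank 9).

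Without mouse 63 the connectivity of Fasn was 823 and its rank 1. That of Mtcl1 was 785 (rank 14), of Pdzd2 776 (rank 21), of Jcad 768 (rank 26) and of Adgrb2 765 (rank 27). The median of the 5 was 1501 with all mice (jackknife SE 730), 776 without mouse 63 and at least 1499 without any other single mouse. Nearly all of the jackknife error thus came from mouse 63. On log2 values the median was 312, and the ranks ran from 44 for Fasn and 353 for Pdzd2 to 1695 for Mtcl1, 1833 for Jcad and 2009 for Adgrb2.

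**Figure D1:**
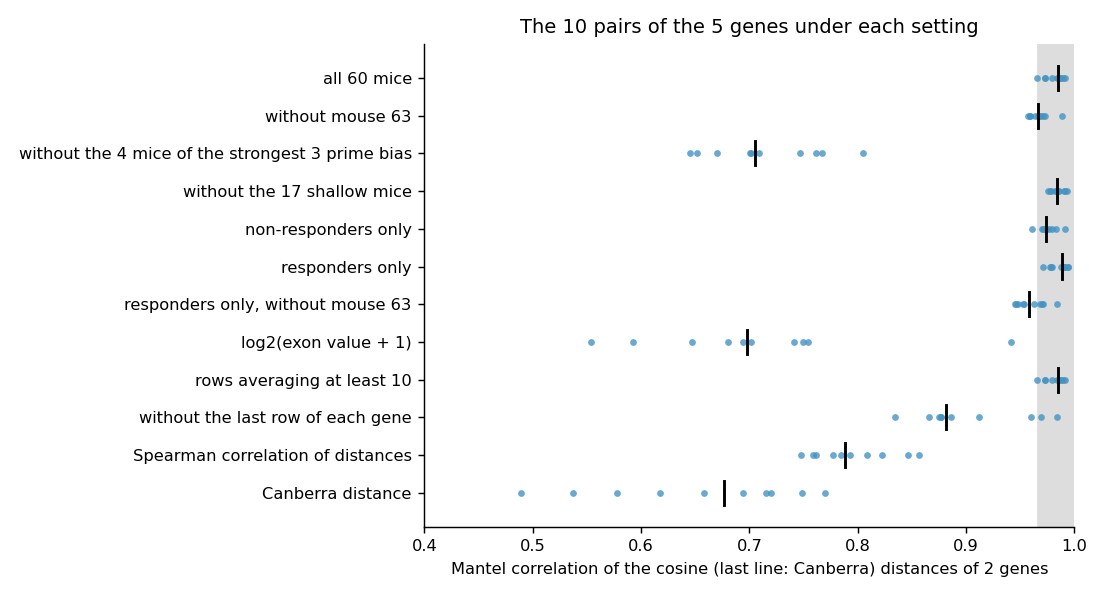
Mantel correlation of exon distances (horizontal axis, no unit) for each of the 10 pairs of the 5 genes (points) under each choice of mice, scale and distance (lines of the vertical axis), with the median as a bar. The shaded band is the median with all mice plus or minus its jackknife SE (0.0181), cut at 1. The median was 0.985 with all mice, 0.966 without mouse 63, 0.705 without the 4 mice of strongest 3′ bias and 0.697 on log2 values.

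The last row of each gene and long or well covered rows nearer to its 5′ end moved in opposite directions. In Mtcl1, row 19 is the last row and holds the 3′ end. Its share was lowest at 14.8%, had a median of 19.4% and was highest at 50.7%, in mouse 63. Mice 5, 4 and 62 followed with 36.2%, 33.5% and 27.8%, and every other mouse was at 25% or below. Row 6, a coding exon of 1308 bases, moved the other way, from a median of 22.8% to 9.02% in mouse 63, and row 1, at the 5′ end, from 7.77% to 2.28%. Rows 19, 6 and 1 held 38%, 35.2% and 11.1% of the summed distance of Mtcl1 (37.3%, 31.4% and 13.3% without mouse 63).

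In Adgrb2, the share of the last row, row 28, was lowest at 8.48%, had a median of 9.85% and was highest at 24.7%, in mouse 63. Mouse 5 was at 18.6%, mouse 4 at 15.6% and mouse 62 at 12.4%, with all others at most 11.2%. Row 26, a coding exon of 620 bases near the 3′ end, ran from 21% through a median of 24.9% to 36.7%, again in mouse 63. Row 2, of 826 bases near the 5′ end, fell from a median of 19.9% to 6.69% in mouse 63 and held 49.2% of the summed distance, against 17.7% for row 28 and 15.0% for row 26. The largest part in this receptor gene thus belonged to a row near the 5′ end.

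In Jcad, 2 long rows hold nearly all the reads. The last row, row 4, was lowest at 30.1%, had a median of 35.7% and was highest at 71.6%, in mouse 63. Mice 5, 4 and 62 were at 58.9%, 54% and 47.5%, and no other mouse was above 40.2%. Row 3, an exon of 3653 bases, fell from a median of 60.4% to 27.6% in mouse 63, and the 853-base row 2 from 4.08% to 0.81%. The shares of rows 3 and 4 are bound to each other because they sum to nearly the whole gene, and they held 46.6% and 52.5% of the summed distance. Row 1 averaged under 10 and was at 0 in mouse 63.

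In Pdzd2, the last row, row 29, was lowest at 21.5%, had a median of 28.9% and was highest at 72.5%, in mouse 63. Mouse 5 was at 57.8%, mouse 4 at 51.6% and mouse 62 at 45.2%, and the others reached at most 34.2%. Row 24, an exon of 3934 bases, fell from a median of 41.4% to 19% in mouse 63, and row 4 from 6.55% to 1.23%. Rows 24 and 29 held 44% and 42.9% of the summed distance. Row 1 of Pdzd2, the first in order, was among the rows at 0 in every mouse.

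In Fasn, the last row, row 42, was lowest at 13.3%, had a median of 16.6% and was highest at 48.4%, in mouse 63. Mice 5, 4 and 62 were at 35.2%, 29.5% and 24.1%, and the others at 20.2% or below. Row 9 fell from a median of 5.90% to 0.81% in mouse 63 and row 23 from 5.83% to 2.74%. With 41 rows averaging at least 10, the distance was spread over more rows in Fasn: rows 9, 42 and 23 held 49% of it, whereas the leading 3 rows held 84.2% in Mtcl1, 81.9% in Adgrb2, 93.0% in Pdzd2 and nearly all in Jcad.

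**Figure D2:**
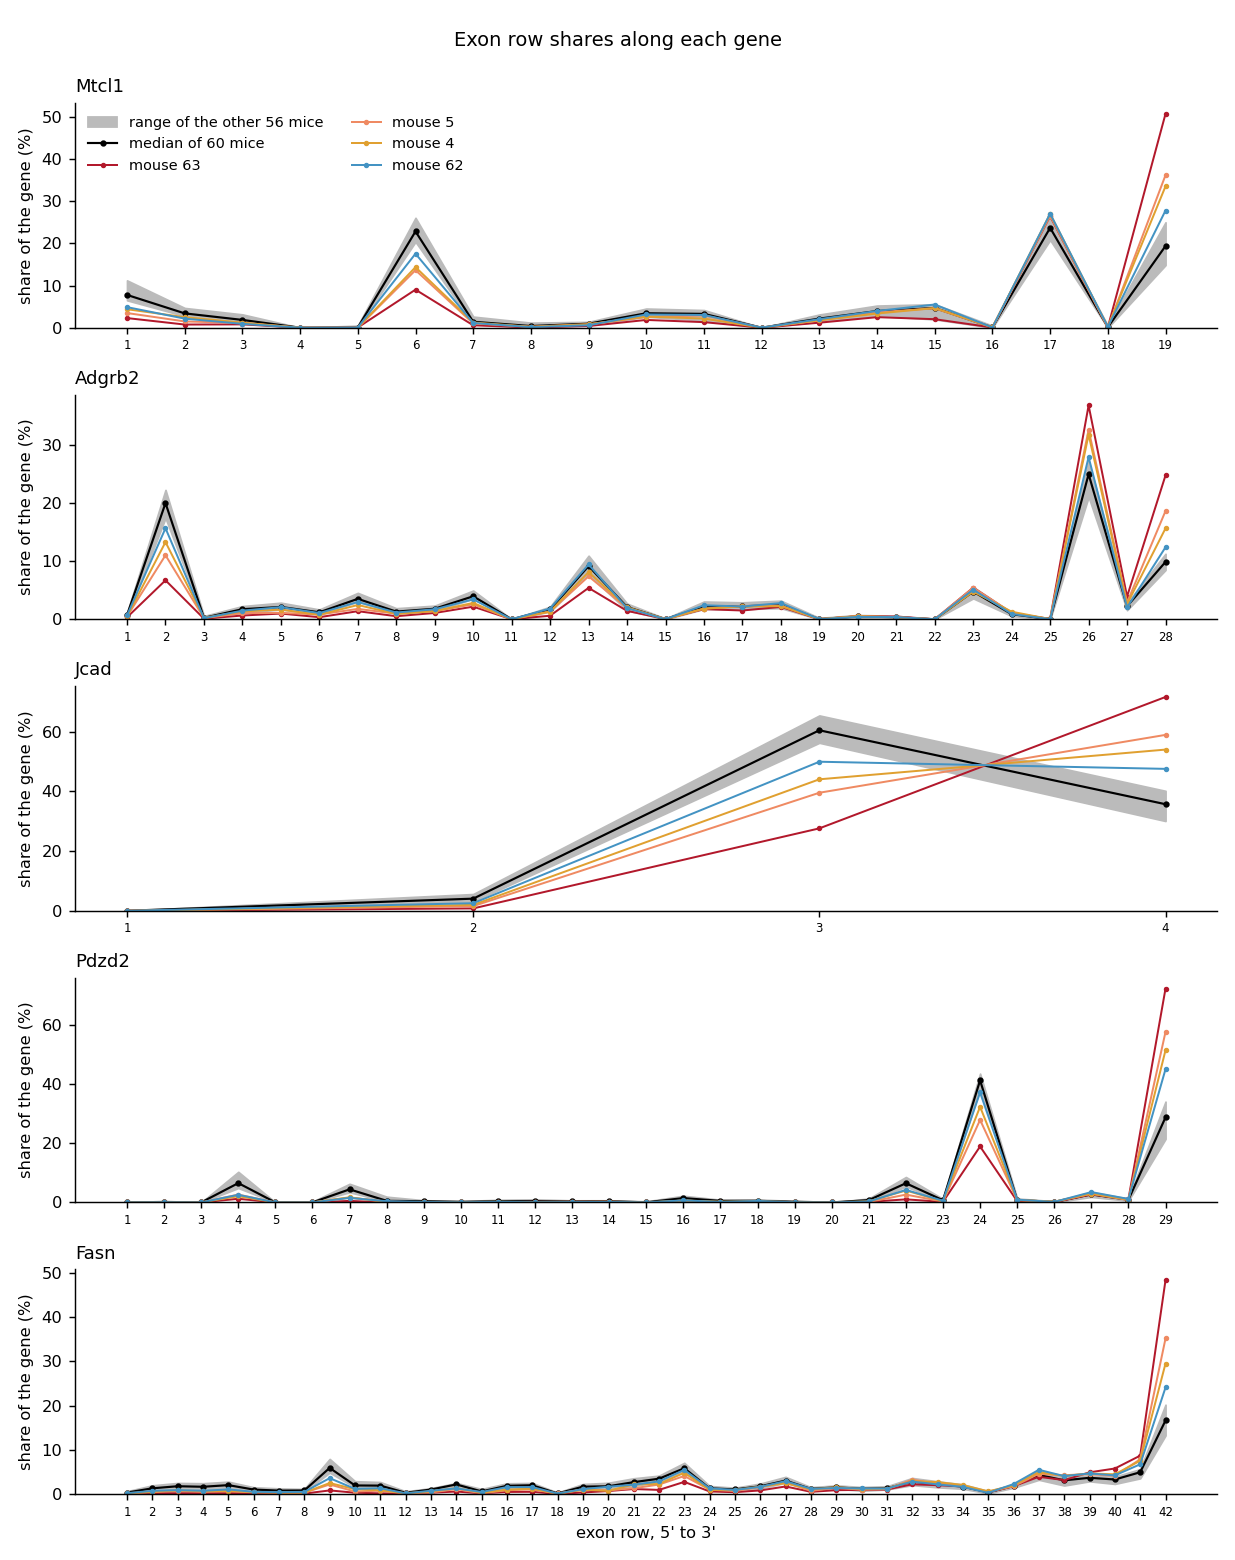
Share of each exon row (vertical axis, percent of the exon values of the gene) in order from the 5′ to the 3′ end (horizontal axis, row number), with the median of the 60 mice in black, mice 63, 5, 4 and 62 in colour and the range of the other 56 mice shaded. The 4 mice lie above the shaded range in the last row of each gene and below it in Mtcl1 row 6, Adgrb2 row 2, Jcad row 3 and Pdzd2 row 24.

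The change in mouse 63 tended to rise from the 5′ to the 3′ end of each gene, least evenly in Pdzd2. Against the median of all mice, 2 of 14 rows of Mtcl1 averaging at least 10 were above and 12 below, with 7 and 16 in Adgrb2, 1 and 2 in Jcad, 3 and 16 in Pdzd2 and 7 and 34 in Fasn. The log2 difference of the first such row was -1.75 in Mtcl1, -1.04 in Adgrb2, -2.30 in Jcad, -2.35 in Pdzd2 and -2.58 in Fasn. At the last row it was 1.39, 1.33, 1.00, 1.33 and 1.54 in the same order. Spearman's rho between position and difference was 0.77 in Mtcl1, 0.90 in Adgrb2, 1 in Jcad (over 3 rows), 0.67 in Pdzd2 and 0.94 in Fasn. In Pdzd2, rows 12 and 14 were at -0.77 and -0.73, but rows 16, 17 and 22, nearer to the 3′ end, at -2.94, -3.08 and -2.57. These coefficients are across the rows of 1 gene in 1 mouse, and the rows are not independent replicates. Shares sum to the whole gene, so a rise of the last row lowers the shares of the other rows. The counts of rows below and the first-row differences include this part.

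The same gradient was present in other genes. For each mouse a 3′ bias index was taken from 2169 genes other than these 5, as the median slope of the log2 row value over position from the 5′ end (0) to the 3′ end (1), relative to the mean over mice. Mouse 63 had an index of 1.62, mouse 5 of 0.96, mouse 4 of 0.72 and mouse 62 of 0.50. The 17 shallow mice had indices from -0.28 to -0.012 (median -0.23) and the remaining 39 from -0.16 to 0.18 (median -0.017). Distances between mice in the 5 genes followed the squared difference of this index, with Mantel correlations of 0.981 in Mtcl1, 0.986 in Adgrb2, 0.991 in Jcad, 0.976 in Pdzd2 and 0.953 in Fasn. Without mouse 63 these were 0.972, 0.977, 0.987, 0.982 and 0.972. The 867 other genes of at least the same exon sum had a median of 0.886 (0.798 without mouse 63). All the points share the libraries, and whether the gradient arose in the animals or during RNA and library preparation was not tested.

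**Figure D3:**
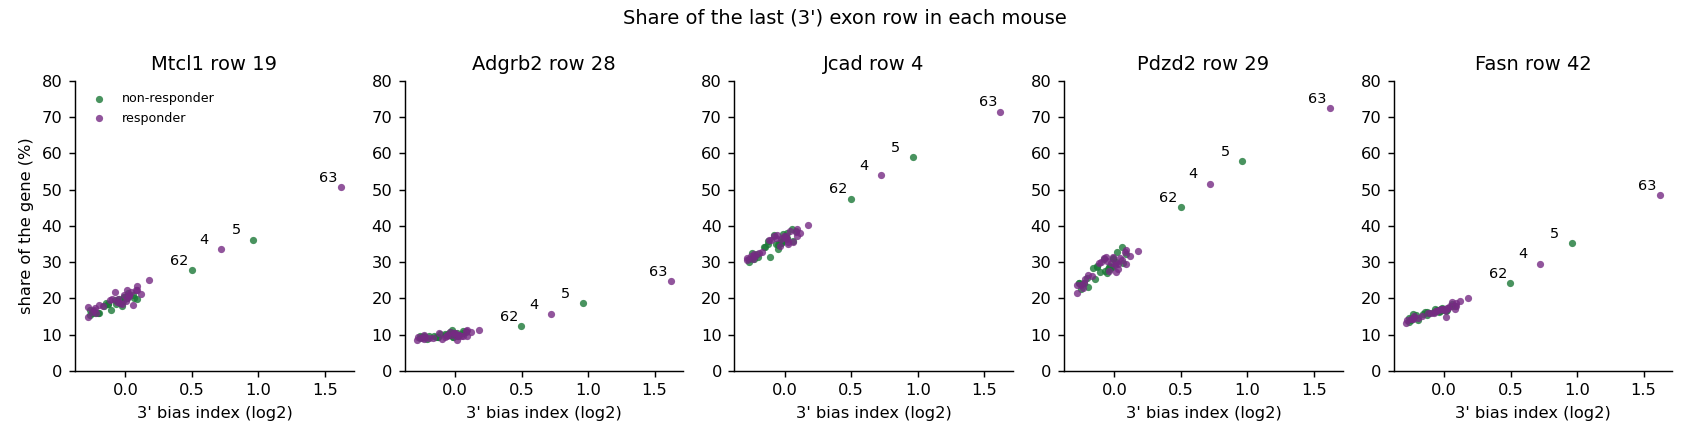
Share of the last exon row of each gene (vertical axis, percent of the exon values of the gene) against the 3′ bias index of the mouse in other genes (horizontal axis, log2), with 1 point for each of the 60 mice coloured by catalepsy phenotype. Mice 63, 5, 4 and 62 lie above all others in each gene, and mouse 63 reaches 50.7% in Mtcl1, 24.7% in Adgrb2, 71.6% in Jcad, 72.5% in Pdzd2 and 48.4% in Fasn.

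The shallow mice, taken by their median, had the opposite gradient. Their median share minus that of the 39 others, on the log2 scale, fell with position, with rho of -0.82 in Mtcl1, -0.71 in Adgrb2, -1 in Jcad (over 3 rows), -0.79 in Pdzd2 and -0.85 in Fasn. A few rows moved more than the gradient. Pdzd2 row 8 (start 12373086), a 2335-base exon annotated in 1 transcript, had a median share of 1.42% in the shallow mice (0.34 to 1.93) and 0.53% in the 39 others (0.30 to 0.90). Mtcl1 row 8 (start 66723872), a 133-base non-coding exon annotated in 1 transcript, was at 0.79% (0.24 to 1.18) and 0.36% (0.15 to 0.68). Both ranges overlapped. These rows were chosen after their values were seen. The shallow mice are numbers 41 to 56 and 26. Only mouse 26 is shallow outside this run of numbers, and its bias index was -0.012, within the range of the 39 others. With 1 such mouse, the parts of depth and of the run were not tested.

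Rows of different genes moved together by their place in the gene. Each of the 100 rows averaging at least 10 was compared with the last rows of the other 4 genes by the median Pearson r of the shares over mice. Over all mice 13 rows went with the last rows (median r above 0.5), 57 went against them (below -0.5) and 30 were between. Without mouse 63 the counts were 11, 44 and 45, and without the 4 mice 9, 19 and 72. By Spearman's rho over all mice they were 10, 25 and 65. Within non-responders they were 12, 48 and 40, and within responders 12, 66 and 22. With all mice, the rows that went with the last rows were rows 17 and 19 of Mtcl1, 24, 26, 27 and 28 of Adgrb2, 4 of Jcad, 29 of Pdzd2 and 38 to 42 of Fasn, each at the 3′ end. Those against lay nearer to the 5′ end, among them 1, 2, 3, 6, 7, 8 and 9 of Mtcl1 and both 2 and 3 of Jcad. Each share is relative to its own gene, so a rise of that gene's last row lowers its other shares. The last rows of different genes varied together, with a median r of 0.945 over all mice. The counts of rows against the last rows therefore include a part that follows from shares summing to the whole gene. The size of this part was not tested.

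Among the last rows themselves, r over the 10 gene pairs was from 0.871 to 0.982 over all mice (median 0.945, median rho 0.774) and from 0.787 to 0.974 without mouse 63 (median 0.915). Without the 4 mice the median was 0.786, and in the 39 deeper mice of weak bias it was 0.440 (0.130 to 0.857). In these 39 the median rho was 0.348, and the median r was 0.308 without the 2 mice farthest from the median. Within the 17 shallow mice the median r was 0.720 (-0.114 to 0.802), with a median rho of 0.510. It was 0.289 without the 2 mice farthest from the median, so that it rested on those mice. Within non-responders the median was 0.941 and within responders 0.956, or 0.890 without mouse 63. Of the 70 rows past 0.5 over all mice, 57 were past it in the same direction within non-responders and 69 within responders. The mice form separate clusters by depth and bias, so the values within clusters are those to read.

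**Figure D4:**
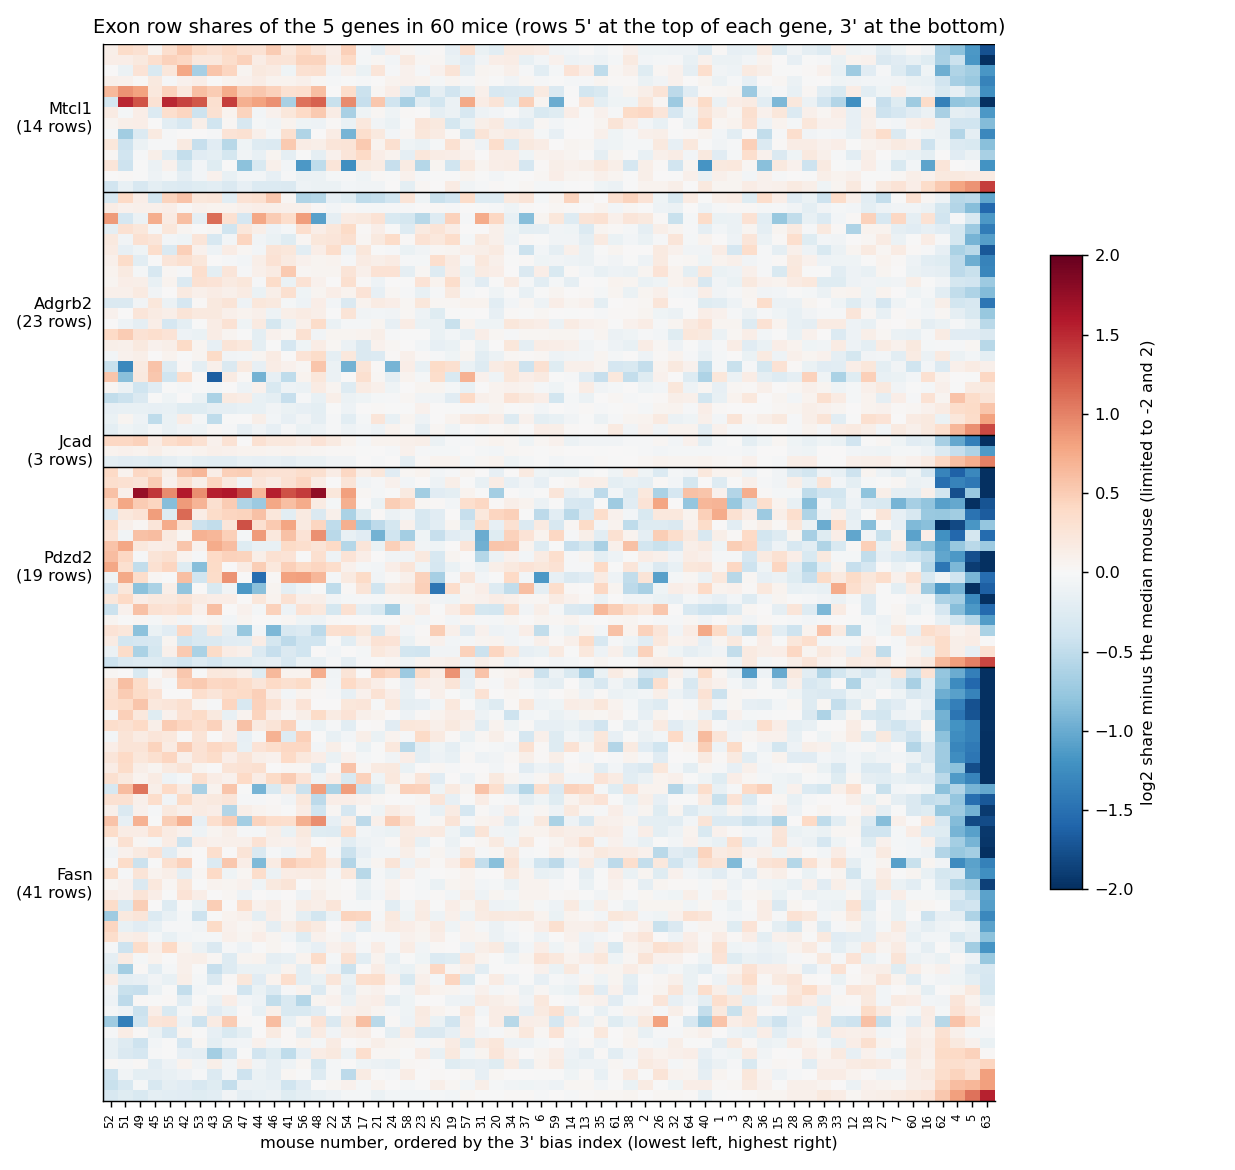
Difference of each exon row share from the median mouse (colour, log2, limited to -2 and 2) for the 100 rows averaging at least 10, with rows from the 5′ end at the top of each gene to the 3′ end at the bottom and the 60 mice ordered from the lowest to the highest 3′ bias index. The 4 mice at the right are low in rows toward the 5′ end and high in the last rows, and the shallow mice, mostly at the left, show the reverse with smaller differences.

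Few rows varied well above counting error and apart from the gradient. Without the 4 mice, the SD of the share was at least 2 times the counting SD in 14 rows, and 12 of these had an absolute r of at least 0.5 with the 3′ bias index. The exceptions were Mtcl1 row 15 and Fasn row 20. Mtcl1 row 15 (start 66697306), a part coding exon of 556 bases annotated in 1 transcript, had a share from 1.97% to 5.55% (median 4.66, quartiles 3.70 to 5.09), and its SD was 2.66 times the counting SD. Its r with the bias index was 0.047 without the 4 mice. In 7 mice, of which 6 were responders, it was under 3%. Fasn row 20 (start 120676605), the 180-base coding exon printed above, had a share from 0.66% to 2.53% (median 1.75), an SD 2.33 times the counting SD and an r of -0.21 without the 4 mice (-0.56 over all mice). It was under 1% in 7 mice, of which 6 were responders. Both limits were set after the values were seen.

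The nearest genes were sought outside the 5, although some of the 5 were closer to each other than to genes named here. The genes outside the 5 with the most similar distances over all mice were partly shared by 4 of the 5, and those of Fasn were not among them. For Mtcl1 they were Hivep2 (ENSMUSG00000015501), a zinc finger transcription factor, Jmjd1c (ENSMUSG00000037876), of the histone demethylase family, and Lmo7 (ENSMUSG00000033060), with Mantel correlations of 0.988, 0.988 and 0.986. For Adgrb2 they were Jmjd1c, Hivep2 and Zswim8 (ENSMUSG00000021819; 0.989, 0.989 and 0.988), and for Jcad Jmjd1c, Hivep2 and Cep170b (ENSMUSG00000072825; 0.997, 0.996 and 0.994). For Pdzd2 they were Hivep2, Togaram1 (ENSMUSG00000035614) and Jmjd1c, at 0.995, 0.990 and 0.990. Fasn had Sec16a (ENSMUSG00000026924), which acts where vesicles leave the endoplasmic reticulum, and the ubiquitin ligases Huwe1 (ENSMUSG00000025261) and Mycbp2 (ENSMUSG00000033004), at 0.986, 0.984 and 0.984.

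Without mouse 63 the nearest genes were Celsr3 (ENSMUSG00000023473), Iqsec1 (ENSMUSG00000034312) and Arhgap32 (ENSMUSG00000041444) for Mtcl1, at 0.979, 0.977 and 0.974. They were Hivep2, Sec16a and Iqsec1 for Adgrb2 (0.973, 0.972 and 0.972), and Hivep2, Jmjd1c and Rev3l (ENSMUSG00000019841) for Jcad (0.996, 0.991 and 0.988). They were Hivep2, Jmjd1c and Sec16a for Pdzd2 (0.990, 0.988 and 0.982) and Prkcb (ENSMUSG00000052889), Tnrc6a (ENSMUSG00000052707) and Sec16a for Fasn (0.976, 0.974 and 0.973). Each likeness is over all pairs of the 60 mice, or of 59 mice without mouse 63.

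Catalepsy phenotype was compared on log2((row value + 1)/(sum of the rows + 1)) by limma over 67134 exon rows, with sex as a covariate and Benjamini-Hochberg adjustment over all rows. Of all rows tested, 0.0209% were called at an adjusted p under 0.05. None of the 100 rows of the 5 genes was called by limma (0 of 100, smallest adjusted p 0.742), by any alternative run or by diffSplice, and 2 had an unadjusted p under 0.05, against 3241 of all rows. The median difference, responders minus non-responders, was -0.031 over the 100 rows and -0.017 over all rows. Over the 100 rows it was above 0 without mouse 63 (0.0068) and on the centred log ratio (0.0074). At the level of whole genes 9 of 8535 (0.105%) were called.

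The last rows overlapped between the phenotypes, except that the responder mouse 63 lay above every non-responder in each gene. The share of Mtcl1 row 19 was 15.5% at the lowest, 19% at the median and 36.2% at the highest in non-responders, and 14.8%, 19.8% and 50.7% in responders, a difference of 0.10 on the log2 scale (SE 0.074, limma p = 0.186). The difference was 0.0065 for Adgrb2 row 28 (p = 0.92), 0.046 for Jcad row 4 (p = 0.405), 0.046 for Pdzd2 row 29 (p = 0.55) and 0.042 for Fasn row 42 (p = 0.592). Without mouse 63 it was -0.035 for Adgrb2 row 28 and -0.0063 for Fasn row 42. The 3′ bias index itself averaged 0.024 in responders (SD 0.357, n = 30) and -0.035 in non-responders (SD 0.239, n = 30; two-sided permutation p = 0.489), and without mouse 63 the responders averaged -0.031 (p = 0.948).

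In the limma fit on all mice with sex as the only covariate, the smallest p by phenotype belonged to Mtcl1 row 15. Its share was 1.97% at the lowest, 4.83% at the median and 5.51% at the highest in non-responders, and 2.01%, 4.21% and 5.55% in responders. The groups overlapped over the whole range. Responders were 12 of the 14 mice of lowest share and 6 of the 14 of highest share, a cut set after the values were seen. The difference was -0.27 on the log2 scale (SE 0.098, unadjusted p = 0.0082), which did not pass Benjamini-Hochberg adjustment (limma, adjusted p = 0.742), and -0.24 without mouse 63. Other settings had another row first. Without mouse 63 it was Adgrb2 row 21 (limma p = 0.0042, against 0.014 for Mtcl1 row 15). By diffSplice it was also Adgrb2 row 21 (p = 0.0015, against 0.092). With the bias covariate it was Pdzd2 row 17 (limma p = 0.0024, adjusted p = 0.294). None of these passed the adjustment.

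Adgrb2 row 21 (start 129692179), a coding exon of 99 bases, had shares of 0.225%, 0.382% and 0.578% in non-responders and 0.102%, 0.324% and 0.528% in responders, in the same order. The difference was -0.27 (SE 0.098, unadjusted p = 0.0083, limma adjusted p = 0.744), and -0.29 without mouse 63. Its values were only from 7 to 38, and its SD was 1.13 times the counting SD. In the other genes the row of smallest p in the same limma fit on all mice was Fasn row 20 (-0.21, SE 0.115, p = 0.072), Pdzd2 row 23 (-0.14, p = 0.203) and Jcad row 4. None of these differences passed the test.

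**Figure D5:**
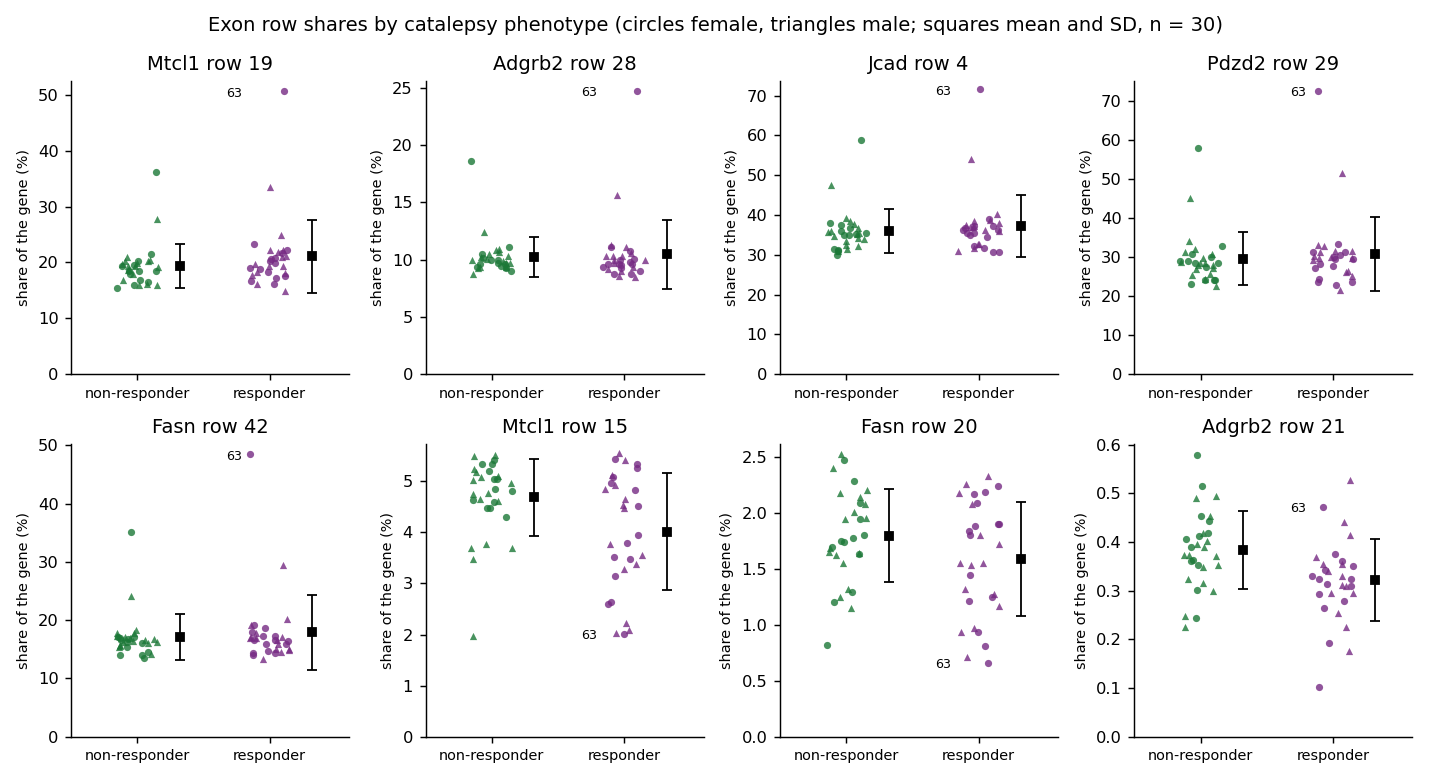
Shares (vertical axes, percent of the exon values of the gene) of the 5 last rows and of Mtcl1 row 15, Fasn row 20 and Adgrb2 row 21, with 1 point per mouse, circles for females and triangles for males, and a square with bars for the mean and SD of 30 mice. In Mtcl1 row 15 the medians are 4.83% in non-responders and 4.21% in responders and in Adgrb2 row 21 they are 0.382% and 0.324%, and the groups overlap in each panel.

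By sex, 0% of the 67134 rows were called by limma, and 1784 had an unadjusted p under 0.05, as did 2 of the 100 rows of the 5 genes. The diffSplice test called 6 rows, none of them in the 5 genes. The smallest p was that of Fasn row 15, with shares of 0.144% at the lowest, 0.518% at the median and 0.959% at the highest in females and 0.310%, 0.611% and 1.12% in males. The difference, males minus females, was 0.36 (SE 0.124, unadjusted p = 0.0049, limma adjusted p = 1.00). Without mice 33 to 37 the difference was 0.39. These mice were left out because the mean z score of the X-linked genes Ddx3x, Kdm5c and Kdm6a, which are higher in females, was from 0.495 to 1.15 in males 33, 34, 35 and 37, against -2.05 to 0.262 in the other 28 males. It was -0.320 in female 36, -0.882 in female 5 and -1.76 in female 63, against -0.117 to 1.6 in the other 25 females. Females 5 and 63 were kept, as were males 4 and 62, at -1.78 and -2.05. These 4 are the mice of highest 3′ bias index, and the part of the bias in the score was not tested. Whether a mismatch of labels in mice 33 to 37 extends to their phenotype was not tested either.

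In the test of a difference of the phenotype effect between the sexes, 0% of all rows were called by limma and 1376 had an unadjusted p under 0.05, of which 0 were in the 5 genes, and diffSplice called 7 rows, none in the 5 genes. Without mice 33 to 37 limma called 1 row, also outside the 5 genes.

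At the level of the whole gene the 5 genes were not called by phenotype, by sex or for their interaction by limma, by edgeR on the recovered reads or by DESeq2, with 0 of 5 called and 0 of 5 at an unadjusted p under 0.05 in each. The background was 0.105% by phenotype, 0.0351% by sex and 0% for the interaction. The Mtcl1 level was 2311 at the lowest, 3481 at the median and 4235 at the highest in non-responders and 2284, 3738 and 4916 in responders, with a log2 difference of 0.061 (SE 0.066, limma adjusted p = 0.999). For the other genes the differences were -0.023 in Adgrb2 (SE 0.037), -0.012 in Jcad (SE 0.055), -0.0063 in Pdzd2 (SE 0.093) and -0.032 in Fasn (SE 0.055). Mouse 63 had the lowest level of Mtcl1, Jcad, Pdzd2 and Fasn and the 4th lowest of Adgrb2. Its Pdzd2 level was 1551, against 3568 at the median. Over all mice, r between the log2 level and the 3′ bias index was -0.57 in Mtcl1, -0.046 in Adgrb2, -0.59 in Jcad, -0.63 in Pdzd2 and -0.60 in Fasn. Without the 4 mice of strongest bias it was -0.39, 0.093, -0.011, -0.34 and -0.23 in the same order. The part of the bias in these levels was not tested.

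Genes related to the 5 were followed in lists at the gene level. By phenotype, none of 21 measured genes of fatty acid and sterol synthesis, 12 adhesion G protein-coupled receptors, 20 genes of endothelial junctions and Hippo signalling or 33 PDZ domain scaffold genes was called by limma. At an unadjusted p under 0.05 there were 2, 0, 6 and 2 in this order and 3 of 34 microtubule-associated genes, against 554 of all 8535 genes. The endothelial and Hippo genes had a median log2 difference of 0.050, with 16 of 20 above 0, against -0.0033 over all genes. With the 3′ bias index as a covariate, limma called 61 of all 8535 genes (0.715%). Among these was 1 of the endothelial and Hippo genes, Tjp1 (ENSMUSG00000030516), which encodes a scaffold protein of tight junctions. Its level was 1708 at the lowest, 2280 at the median and 2813 at the highest in non-responders and 1653, 2497 and 3071 in responders, a difference of 0.14 with the covariate (SE 0.030, limma adjusted p = 0.0125) and 0.11 without it (SE 0.044, limma adjusted p = 0.454). The endothelial marker Flt1 had a difference of 0.11, which did not pass the test, and its part in these values was not tested.

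Of 34 microtubule-associated genes, 1 was called: Map7 (ENSMUSG00000019996), which encodes a protein that binds and stabilises microtubules and recruits kinesin. Its level was 983 at the lowest, 1239 at the median and 1645 at the highest in non-responders and 1085, 1452 and 1899 in responders. It was higher in responders by 0.23 on the log2 scale (SE 0.050, limma adjusted p = 0.0228, edgeR adjusted p = 0.0329), with overlapping groups. By sex and for the interaction no gene of these lists was called.

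Striatal markers were present in every mouse. Of 10 genes of medium spiny neurons 7 were measured (Drd2, Ppp1r1b, Penk, Adora2a, Rgs9, Pde10a and Tac1), with a summed level from 57073 to 135136, and none was at 0. The 2 measured markers of cortical excitatory neurons summed to 267 to 4533, with 864 to 4372 in non-responders and 267 to 4533 in responders. The 3 measured astrocyte markers summed to 54693 to 153505, with the lowest value in mouse 63. Most of this sum was Slc1a2 (median 96622, against 5132 for Gja1 and 625 for Aldh1l1). Mouse 63 also had the highest 3′ bias index (1.62), and the part of this bias in its marker levels was not tested. Of 6 endothelial markers 1 was measured, from 672 to 1625 (681 in mouse 63). The 5 measured oligodendrocyte markers summed to 90013 to 265409 (190193 in mouse 63) and the 4 of microglia to 2862 to 6738 (6124 in mouse 63). No gene of these lists was called by phenotype. In bulk tissue, fewer cells of a type and less RNA per cell cannot be told apart, and the part of cell makeup in the exon shares was not tested.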

How the data were processed

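The deposited exon values are a score: the authors multiplied reads per exon by the upper quartile factor of the library (edgeR) and rounded the product. The deposited gene values are a signal, the unrounded product of this factor and the read count on Ensembl 59 union exon models, from which whole reads were recovered (largest deviation 6.53e-05 reads). Per the methods and the submitters' processing notes, reads were aligned with Bowtie 0.12.7 to NCBI m37 (mm9) and scaled with edgeR 3.4.2 in R 3.0.2. Errors are those between mice, since none has a repeat library.

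Cosine distances used all exon rows. Tests used limma 3.58.1 with the trend option in R 4.3.3 on log2 values with a pseudocount of 1, for rows and genes averaging at least 10, with calls at adjusted p under 0.05. Fold changes on this scale understate those of low rows. Alternatives were edgeR 4.0.16, DESeq2 1.42.0, diffSplice and other filters, pseudocounts and sets of mice. The scripts were tested on simulated data. Other values came from Python 3.11.15, numpy 2.4.6, pandas 2.3.3 and scipy 1.17.1. The SE of a network value is a jackknife over single mice, and permutation tests had 100000 resamples. GENCODE M21 gave exon length and sequence. Symbols were found for 97.7% of the gene identifiers.

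The 5 genes and the gene lists were chosen with earlier results of these data known. Rows named were, for each gene, the 3 with the largest part of the distance, the first and last, those of smallest p, and others where stated. From the lists, genes past the threshold were named. Nothing states whether any mice shared a litter.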

Additional observations from a re-analysis of the deposited data

How the results depend on the processing

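None of the 5 genes or their rows was called under any alternative. For exon rows by phenotype, the 14 calls over all genes became 8 without the 17 shallow mice, 41 with the 3′ bias index as covariate, 88 by diffSplice and 8 without mice 33 to 37, an alternative chosen after seeing the data. For gene levels by phenotype, the 9 calls became 23 by DESeq2, 3 without the shallow mice, 61 with the bias covariate and 2 without mice 33 to 37. The 3 genes called by sex became 0 without the shallow mice. For rows by sex diffSplice called 6, and for the interaction it called 7 and limma without mice 33 to 37 called 1, each against 0. The median Mantel correlation of 0.985 became 0.9665 without mouse 63, 0.7053 without the 4 mice of strongest bias, 0.9584 in responders without mouse 63, 0.6975 on log2 values, 0.8815 without the last rows, 0.7885 by Spearman's correlation and 0.6762 by the Canberra distance. The median connectivity of 1501 became 776 without mouse 63 and 312 on log2 values. Of the 100 rows, 70 varied with or against the last rows, 55 without mouse 63 and 35 by Spearman's rho.

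Differences that were not called changed sign as follows, on the log2 scale, in a list that does not hold every row. By phenotype, Mtcl1 row 6 went from -0.010 to 0.031 without mouse 63 and 0.032 with the bias covariate. Adgrb2 row 2 went from -0.030 to 0.019 and 0.017 in this order, and Jcad row 2 from -0.054 to 0.017 and 0.023. Fasn row 9 went from -0.048 to 0.041 and 0.040. Without mouse 63, by phenotype, Adgrb2 row 28 was at -0.035, the Jcad level at 0.016, the Pdzd2 level at 0.031 and Fasn row 42 at -0.0063, and by sex Jcad row 2 was at -0.026, the Pdzd2 level at -0.029 and the Fasn level at -0.020. With the bias covariate, by phenotype, Adgrb2 row 28 was at -0.038, the Jcad level at 0.013, the Pdzd2 level at 0.038, Pdzd2 row 29 at -0.0088 and Fasn row 42 at -0.015, and the Pdzd2 level by sex at -0.0047. Without the shallow mice the Jcad level by phenotype was at 0.0022 and the Pdzd2 level by sex at -0.021. The Pdzd2 level by phenotype was at 0.030 by edgeR and 0.030 by DESeq2, and Jcad row 2 by sex at -0.018 on the centred log ratio. The causes were not tested.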
